A study of Homo sapiens with 12 samples.

Results

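The UGT2B enzymes of LNCaP cells, a human prostate cancer line that responds to androgen, were followed at the RNA level across expression of an shRNA against TMEFF2 and treatment with dihydrotestosterone (DHT). The members were UGT2B7, UGT2B10, UGT2B11, UGT2B15, UGT2B17 and UGT2B28, which are 6 of the 34643 gene symbols of the deposited table. They were chosen by their levels in these same libraries, so their levels and fold changes are given as a description, without a test. Cells were transduced with lentiviral pLKO.1-puro particles that express an shRNA from the U6 promoter, either a scrambled control (shScramble) or one against TMEFF2 (shTMEFF2), and were selected in puromycin. About 2.5 weeks later both lines were kept for 24 hours in medium with 10% charcoal-stripped serum, which lowers androgen, and then received 10 nM DHT (DHT+) or ethanol vehicle (DHT-) for 24 hours. The 2.5 weeks are from the sample labels, and the study's methods give a shorter growth time before this step. The 4 groups, shScramble DHT-, shScramble DHT+, shTMEFF2 DHT- and shTMEFF2 DHT+, had 3 libraries each, from 3 separate treatments and extractions that go back to 2 transductions. Which replicate belongs to which transduction was not given in the labels, so the share of the spread due to the transduction was not tested. Each library held 19450866 to 22612046 estimated counts, and levels are given as CPM, the count scaled to a common library total, with edgeR's TMM correction of that total.

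UGT2B enzymes sit in the membrane of the endoplasmic reticulum and join glucuronic acid, taken from UDP-glucuronic acid, to lipophilic compounds, which makes them soluble and ready for export. In prostate cells UGT2B15 and UGT2B17 are known for conjugating DHT and its metabolites, which ends their hormone action. UGT2B28 can also conjugate androgens, UGT2B7 takes a wide range of substrates that includes opioids and estrogens, and UGT2B10 is known for attaching glucuronic acid to the nitrogen of amines.

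The RNA of the shRNA target was lower on average in shTMEFF2, but the lines were not separated by it. TMEFF2 was at 77.8, 73.8 and 103 CPM in the shScramble DHT- libraries and at 68.6, 39.3 and 81.7 CPM in the shTMEFF2 DHT- libraries. With DHT it was at 173, 117 and 169 CPM in shScramble and at 142, 90.1 and 115 CPM in shTMEFF2. The ranges of the lines overlapped at both DHT levels, and neither difference passed (log2 fold change -0.43 ± 0.25 (SE) without DHT, adjusted p = 0.503, and -0.41 ± 0.25 with DHT, adjusted p = 0.304, edgeR quasi-likelihood test). Adjusted p-values measure the spread between these 3 libraries a group, which share their transductions. The study reports by Western blot that some of its shRNAs lowered TMEFF2 protein in LNCaP cells, which these RNA levels do not address. KLK3, the androgen-induced gene for prostate-specific antigen, rose with DHT from 1925 ± 26.5 to 7495 ± 261 CPM (SD, n = 3) in shScramble and from 356 ± 134 to 1949 ± 511 CPM in shTMEFF2. Both rises passed (adjusted p = 3.88e-05 and 0.000112). KLK3 was also lower in shTMEFF2 than in shScramble, by a log2 fold change of -2.43 ± 0.23 without DHT (adjusted p = 0.000283) and -1.94 ± 0.22 with DHT (adjusted p = 8.28e-05).

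The libraries had the marker profile of LNCaP cells. All 7 luminal prostate markers examined were present, summing to 3448 to 13858 CPM a library, with KLK3 the most abundant on average in the DHT+ groups and FOLH1, the gene for prostate-specific membrane antigen, in the DHT- groups (2566 CPM in shScramble and 2277 CPM in shTMEFF2). Of the 6 hepatocyte markers none was at 0 in all libraries, but they summed to 1.46 to 5.48 CPM, with TTR the most abundant, and liver is a tissue rich in these enzymes. The 5 leukocyte markers summed to 7.86 to 12.6 CPM (CD68 highest with DHT, PTPRC without) and the 5 fibroblast markers to 12.7 to 34.5 CPM (COL1A1 highest). The 4 neuroendocrine markers summed to 35.4 to 109 CPM (ENO2 highest, INSM1 at 0), and the 3 basal markers to at most 1.77 CPM (KRT14 highest with DHT, TP63 without, KRT5 at 0). Some of these sums differed between the lines. The luminal markers summed to 5764 to 5902 CPM in shScramble DHT- and to 3448 to 3899 CPM in shTMEFF2 DHT-, and with DHT to 12924 to 13858 CPM and 4580 to 5737 CPM, so that shTMEFF2 was lower without overlap at both DHT levels. The fibroblast markers were higher in shTMEFF2 without overlap, at 23.1 to 34.5 CPM against 21.1 to 22.0 CPM without DHT and 17.4 to 21.0 CPM against 12.7 to 13.6 CPM with DHT. Without DHT the leukocyte markers were higher (11.2 to 12.6 against 7.86 to 9.74 CPM) and the neuroendocrine markers lower (53.6 to 57.7 against 73.2 to 109 CPM) in shTMEFF2, and with DHT both overlapped. The basal markers were lower in shTMEFF2 with DHT, at under 1 CPM, and the hepatocyte markers overlapped at both DHT levels. The luminal and fibroblast sums thus differed between the lines at both DHT levels. KLK3, which responds to androgen, is in the luminal sum and was itself lower in shTMEFF2. COL1A1 led the fibroblast sum, at 18.9 CPM in shScramble DHT- and 25.3 CPM in shTMEFF2 DHT-. With DHT it was at 12.3 and 15.8 CPM. Of all genes tested, 9.35% were higher and 9.18% lower in shTMEFF2 without overlap when DHT was absent, and 15.5% and 17.0% with DHT. Sums led by 1 gene do not count cells, and the part of any of these cells in the UGT2B levels was not tested.

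The 6 genes lie together on chromosome 4 in the UGT2 cluster (GRCh38, GENCODE annotation), and their likeness sets how well their reads can be told apart. On the minus strand are UGT2B17 (chr4:68537173-68576413), UGT2B15 (chr4:68646597-68670652) and UGT2B11 (chr4:69199951-69214748). On the plus strand are UGT2B10 (chr4:68815994-68832023), UGT2B7 (chr4:69051363-69112987) and UGT2B28 (chr4:69280475-69295050). The coding sequences fall into close pairs: UGT2B15 and UGT2B17 were identical at 96.5% of 1590 aligned bases, UGT2B11 and UGT2B28 at 97.0% of 1587, and UGT2B15 and UGT2B28 at 83.7%. To show what separates them, the same 60 bases of the coding exon are given below for each gene, from the stretch in which UGT2B15 and UGT2B17 differ most (9 bases). Stretches were sought without gaps and within an exon of the coding sequence, and the rest of the transcript was not compared in this way. Capitals mark the 22 positions at which the 6 genes are not all the same.
UGT2B15 (chr4:68670202-68670261, minus strand): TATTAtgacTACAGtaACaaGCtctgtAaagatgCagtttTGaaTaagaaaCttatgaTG
UGT2B17 (chr4:68568068-68568127, minus strand): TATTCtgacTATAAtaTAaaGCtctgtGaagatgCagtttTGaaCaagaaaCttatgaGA
UGT2B11 (chr4:69214309-69214368, minus strand): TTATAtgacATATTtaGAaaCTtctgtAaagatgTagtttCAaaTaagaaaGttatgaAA
UGT2B28 (chr4:69280855-69280914, plus strand): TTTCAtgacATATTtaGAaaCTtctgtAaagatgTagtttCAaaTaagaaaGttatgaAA
UGT2B10 (chr4:68816371-68816430, plus strand): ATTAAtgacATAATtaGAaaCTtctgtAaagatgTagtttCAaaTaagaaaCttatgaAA
UGT2B7 (chr4:69096875-69096934, plus strand): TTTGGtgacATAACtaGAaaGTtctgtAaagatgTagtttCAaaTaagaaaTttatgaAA
In this stretch UGT2B10 and UGT2B7 differed from UGT2B15 at 16 bases and UGT2B11 and UGT2B28 at 17.

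**Figure D1:**
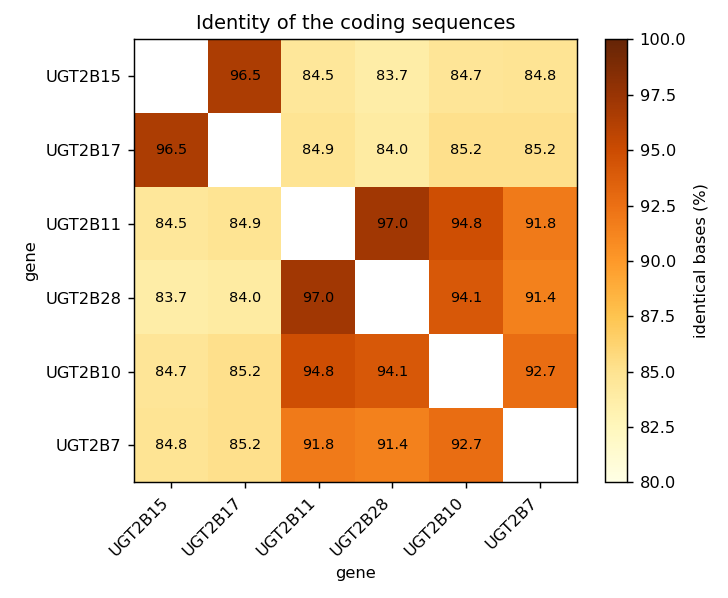
Identity of the coding sequences, in percent of aligned bases, for each pair of the 6 UGT2B genes (genes on both axes, colour and printed number the identity). UGT2B15 with UGT2B17 (96.5%) and UGT2B11 with UGT2B28 (97.0%) form the closest pairs, and UGT2B10 lies nearer to UGT2B11 (94.8%) than to UGT2B15 (84.7%).

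The authors' tool, kallisto, assigns a read by the short words it holds, and words of 31 bases were therefore counted in the main transcript of each gene. Of the words of UGT2B15, 60.0% were found in no other gene, and 759 were shared with UGT2B17. Of those of UGT2B17, 65.1% were its own. UGT2B11 had the fewest of its own, 32.2%, with 738 words shared with UGT2B28, of which 43.0% were its own. The figures were 62.8% for UGT2B10 and 76.5% for UGT2B7. A stretch as long as 1 read of a pair (75 bases) held at least 1 own word at 60.9% of positions in UGT2B11 and at 80.5% to 97.7% in the other 5. Reads without an own word were divided by kallisto's estimate, so the level of a gene in a close pair carries an uncertainty that the spread between libraries does not show. The sum over the 6 genes is less open to how reads are divided among them. It is not free of this, because the deposited counts are scaled by transcript length. Words shared with genes outside the 6 can still move reads into or out of the sum.

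UGT2B15 and UGT2B17, the DHT-conjugating pair, were lower with DHT in shScramble and several times higher in shTMEFF2 at both DHT levels. In bulk RNA, a change in the number of cells that express a gene and a change in the RNA per cell cannot be told apart. UGT2B15 was at 103, 66.2 and 84.0 CPM in shScramble DHT- and at 20.1, 17.1 and 17.6 CPM in shScramble DHT+. In shTMEFF2 it was at 782, 478 and 275 CPM without DHT and at 521, 248 and 151 CPM with DHT. Every shTMEFF2 library was above every shScramble library, and within shTMEFF2 the ranges without and with DHT overlapped. UGT2B17 was at 130, 91.0 and 105 CPM in shScramble DHT- and at 24.1, 14.9 and 22.4 CPM in shScramble DHT+. In shTMEFF2 it was at 554, 392 and 261 CPM without DHT and at 501, 263 and 178 CPM with DHT. The order of the groups was the same as for UGT2B15, again without overlap between the lines.

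The fold changes of this pair in the fit over all genes were as follows. With DHT in shScramble, UGT2B15 was lower by a log2 fold change of -2.21 ± 0.44 (SE) and UGT2B17 by -2.41 ± 0.37, which is 4.63-fold and 5.32-fold. In shTMEFF2 the corresponding values were -0.74 ± 0.40 and -0.36 ± 0.34, with ranges that overlapped. For UGT2B15 this value rested on single libraries: it was -1.36 without replicate 1 of shTMEFF2 DHT+, and the groups then no longer overlapped, and -0.29 without replicate 1 of shTMEFF2 DHT-. Between the lines, UGT2B15 was 6.05-fold higher in shTMEFF2 without DHT (2.60 ± 0.42) and 16.8-fold higher with DHT (4.07 ± 0.46). UGT2B17 was 3.70-fold higher without DHT (1.89 ± 0.35) and 15.3-fold higher with DHT (3.94 ± 0.39). The DHT responses of the lines differed by 1.47 ± 0.59 for UGT2B15 and 2.05 ± 0.49 for UGT2B17, toward less lowering in shTMEFF2. Without replicate 1 of shTMEFF2 DHT+, which had the highest levels of that group, the difference for UGT2B15 was 0.85, and the log2 fold change between the lines with DHT was 3.45 for UGT2B15.

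The 2 genes also moved together from library to library. Per kilobase of transcript, the ratio of UGT2B15 to UGT2B17 stayed between 0.846 and 1.64 over the 12 libraries, while UGT2B15 itself spanned 17.1 to 782 CPM. The ratio was 0.846 to 0.929 in shScramble DHT- and 1.23 to 1.64 in shTMEFF2 DHT-, so without DHT UGT2B15 took a larger part of the pair in shTMEFF2 and the ranges did not overlap. Within shTMEFF2, replicate 1 had the highest and replicate 3 the lowest level of both genes at each DHT level. KLK3 was highest in replicate 3 of shTMEFF2 at each DHT level, at 509 CPM without DHT and 2474 CPM with DHT, against 305 and 1452 CPM in replicate 1 and 255 and 1921 CPM in replicate 2, so that its order was the reverse of that of UGT2B15 and UGT2B17 with DHT but not without it. Over the deviations of the 12 libraries from their group means, r with KLK3 was -0.80 for UGT2B15, -0.72 for UGT2B17 and -0.78 for the family sum, as a description. It was -0.71 for UGT2B10, -0.58 for UGT2B11, -0.13 for UGT2B7 and 0.21 for UGT2B28. The same r with TMEFF2 was 0.11 for UGT2B15, 0.23 for UGT2B17 and 0.0041 for the family sum. Whether these differences between replicates share a source was not tested.

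**Figure D2:**
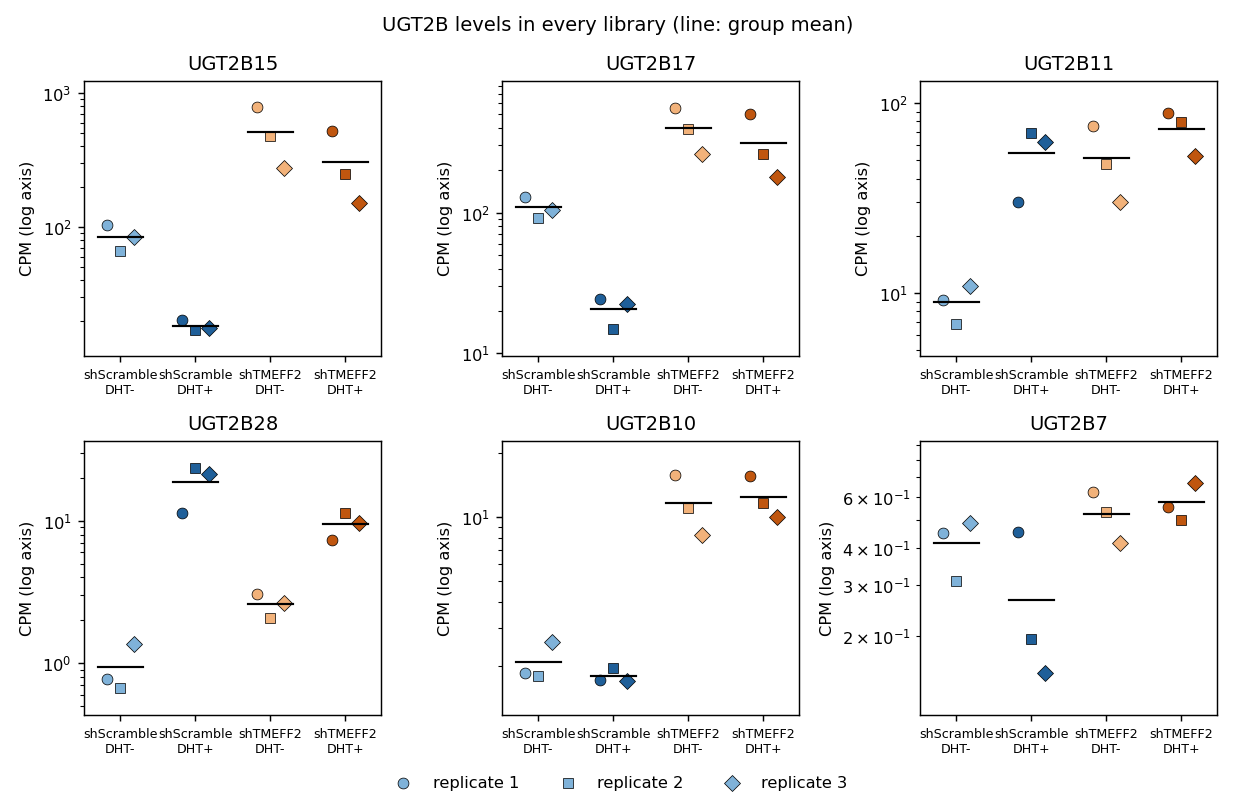
Level of each UGT2B gene in every library, in CPM on a log axis, for the 4 groups (horizontal line, mean of 3 libraries; symbol, replicate number). UGT2B15 and UGT2B17 are lowest in shScramble DHT+, at 14.9 to 24.1 CPM, whereas UGT2B11 and UGT2B28 are lowest in shScramble DHT-.

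UGT2B11 and UGT2B28, the other close pair, went the opposite way with DHT in shScramble: both were higher. UGT2B11 was at 9.23, 6.88 and 10.8 CPM in shScramble DHT- and at 30.3, 70.0 and 62.5 CPM in shScramble DHT+. In shTMEFF2 it was at 75.8, 47.9 and 30.3 CPM without DHT and at 88.4, 79.1 and 52.4 CPM with DHT. Only the shScramble DHT- group stood apart, below all libraries of the other 3 groups, which overlapped each other. The log2 fold change with DHT was 2.59 ± 0.38 in shScramble and 0.51 ± 0.33 in shTMEFF2, and that of shTMEFF2 against shScramble was 2.51 ± 0.38 without DHT and 0.43 ± 0.33 with DHT.

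UGT2B28 was the member with the largest DHT response among the 6, 19.9-fold in shScramble. It was at 0.769, 0.668 and 1.37 CPM (13 to 28 counts) in shScramble DHT- and at 11.4, 23.5 and 21.3 CPM in shScramble DHT+. In shTMEFF2 it was at 3.08, 2.08 and 2.65 CPM without DHT and at 7.32, 11.4 and 9.66 CPM with DHT. The groups without and with DHT did not overlap in either line, and the response was 4.31 ± 0.34 on the log2 scale in shScramble and 1.86 ± 0.30 in shTMEFF2. Against shScramble, UGT2B28 was higher in shTMEFF2 without DHT (1.47 ± 0.36), with no overlap, and lower with DHT (-0.99 ± 0.27), where the ranges just overlapped (11.35 CPM in shScramble replicate 1 and 11.36 CPM in shTMEFF2 replicate 2). The DHT responses of the lines differed by -2.45 ± 0.45 for UGT2B28 and by -2.08 ± 0.50 for UGT2B11, which is the sign opposite to that of UGT2B15 and UGT2B17.

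These genes did not keep a fixed ratio. Per kilobase, UGT2B11 was 6.96 to 10.6 times UGT2B28 in shScramble DHT- and 2.35 to 2.63 times in shScramble DHT+. In shTMEFF2 the ratio was 10.1 to 21.7 without DHT and 4.78 to 10.7 with DHT. UGT2B11 and UGT2B28 share 738 words, and what this does to the low counts of UGT2B28 in DHT- libraries was not tested.

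UGT2B10 differed between the lines and hardly with DHT. It was at 1.86, 1.80 and 2.59 CPM in shScramble DHT- and at 1.72, 1.95 and 1.70 CPM in shScramble DHT+. In shTMEFF2 it was at 15.8, 11.1 and 8.26 CPM without DHT and at 15.6, 11.6 and 10.0 CPM with DHT. The lines did not overlap, at 5.61-fold (2.49 ± 0.26) without and 6.91-fold (2.79 ± 0.26) with DHT, while the DHT response was -0.22 ± 0.29 in shScramble and 0.08 ± 0.23 in shTMEFF2. UGT2B7 was near the limit of detection, with 3 to 15 counts a library, and reached 10 counts in every library of 1 group only, shTMEFF2 DHT+. Its group means were 0.417 ± 0.0958 CPM (SD, n = 3) in shScramble DHT-, 0.267 ± 0.164 in shScramble DHT+, 0.525 ± 0.104 in shTMEFF2 DHT- and 0.575 ± 0.0844 in shTMEFF2 DHT+. With DHT every shTMEFF2 library of UGT2B7 was above every shScramble library (1.10 ± 0.43 on the log2 scale, and 1.71 without replicate 1 of shScramble DHT+), a difference of a few counts, and without DHT the ranges overlapped (0.32 ± 0.40).

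**Figure D3:**
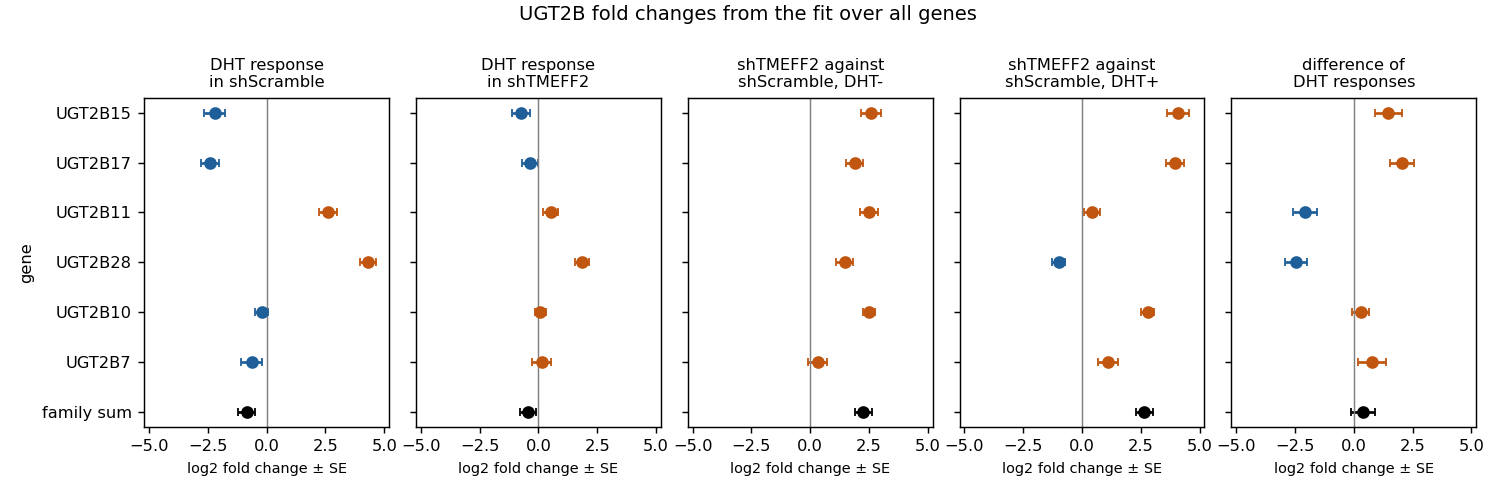
Log2 fold change with its standard error (horizontal bars) for each UGT2B gene and for their sum, in the 5 comparisons, from the edgeR fit over all genes. With DHT in shScramble UGT2B15 and UGT2B17 lie below 0 and UGT2B11 and UGT2B28 above it, and in the difference of DHT responses these signs are exchanged.

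All 6 members passed the filter on low counts and are counted here, with their direction given by groups that do not overlap, against the share of all 15419 genes tested that separate in the same way. With DHT in shScramble 2 members were higher and 2 lower, against 21.3% and 20.5% of all genes. With DHT in shTMEFF2 1 member, UGT2B28, was higher and 0 lower, against 15.6% and 15.7%. In shTMEFF2 against shScramble without DHT 5 members were higher, all but UGT2B7, and 0 lower, against 9.35% and 9.18%. With DHT 4 members were higher (UGT2B7, UGT2B10, UGT2B15 and UGT2B17) and 0 lower, against 15.5% and 17.0%. UGT2B7 reached 10 counts in every library only in shTMEFF2 DHT+, the group in which its mean was highest, so its separation is not read as a result. Because these levels chose the members, nothing is read from these numbers of members. The median log2 fold change of the 6 was 2.19 for shTMEFF2 against shScramble without DHT and 1.94 with DHT, and that of all genes was -0.0037 and 0.0041.

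The family sum followed its most abundant members. It was 246, 167 and 204 CPM in shScramble DHT- and 88.1, 128 and 126 CPM in shScramble DHT+. In shTMEFF2 it was 1431, 932 and 577 CPM without DHT and 1134, 613 and 402 CPM with DHT. Every shTMEFF2 library was above every shScramble library, by 4.77-fold (2.25 ± 0.37) without DHT and 6.30-fold (2.65 ± 0.38) with DHT. With DHT the sum was lower in shScramble by a log2 fold change of -0.85 ± 0.36 without overlap, and in shTMEFF2 by -0.45 ± 0.35 with overlap. The difference of the DHT responses, 0.40 ± 0.50, was smaller than its error, and the pairs enter it with opposite signs.

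The make-up of the sum differed between the groups, given here per kilobase of transcript so that genes of different length can be compared. In shScramble DHT-, UGT2B15 and UGT2B17 together made up 93.5% ± 1.33 (SD, n = 3) of the sum and UGT2B11 and UGT2B28 together 5.39% ± 1.10. In shScramble DHT+ these shares were 33.2% ± 12.6 and 65.3% ± 13.0, so that UGT2B11 alone, at 46.8% ± 10.0, held more of the sum than any other member. In shTMEFF2 the first pair held 92.9% ± 0.367 without DHT and still 84.2% ± 4.75 with DHT, and the second 6.01% ± 0.219 and 14.1% ± 4.27. UGT2B10 held 0.865% to 1.58% and UGT2B7 at most 0.300% of the sum in any group.

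**Figure D4:**
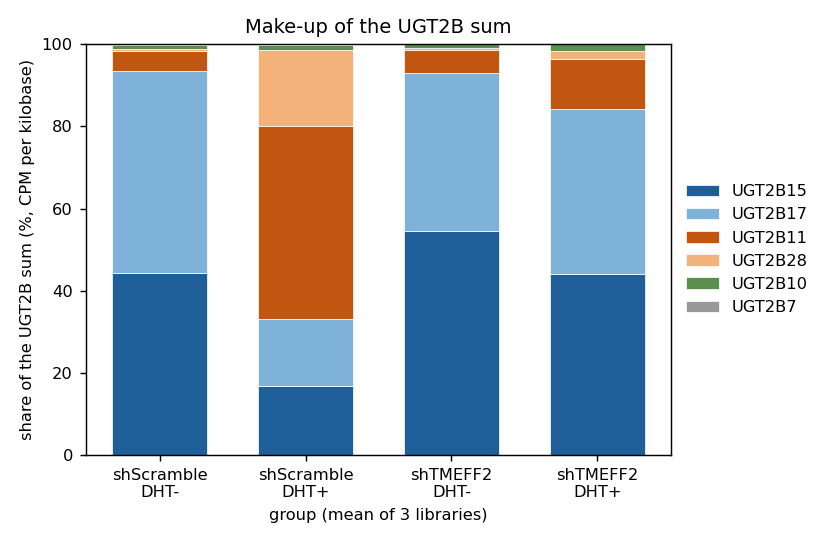
Mean share of each gene in the UGT2B sum (percent, from CPM per kilobase) in the 4 groups of 3 libraries. UGT2B15 and UGT2B17 fill 84.2% to 93.5% of the bar except in shScramble DHT+, where UGT2B11 and UGT2B28 fill 65.3%.

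The order of the members per kilobase was as follows, with neighbours compared within each library because they were measured together. In shScramble DHT- UGT2B17 (43.8 ± 7.95 CPM per kilobase) was 1.08 to 1.18 times UGT2B15 (39.6 ± 8.70) in the 3 libraries, a small difference of 1 direction although the group ranges overlapped. UGT2B11 came next (4.27 ± 0.940), and UGT2B10 (0.755 ± 0.161), UGT2B28 (0.504 ± 0.205) and UGT2B7 (0.221 ± 0.0507) followed. In shScramble DHT+ UGT2B11 led (25.8 ± 10.0), UGT2B28 (10.1 ± 3.48), UGT2B15 (8.56 ± 0.743) and UGT2B17 (8.24 ± 1.98) changed places between libraries, and UGT2B10 (0.649 ± 0.0513) and UGT2B7 (0.141 ± 0.0869) were low. In shTMEFF2 DHT- UGT2B15 (240 ± 120) was above UGT2B17 (162 ± 59.1) in each library, by 1.23 to 1.64 times, with group ranges that overlapped, and both were ahead of UGT2B11 (24.4 ± 10.9), UGT2B10 (4.25 ± 1.37), UGT2B28 (1.40 ± 0.269) and UGT2B7 (0.278 ± 0.0550). In shTMEFF2 DHT+ UGT2B15 (144 ± 89.9) and UGT2B17 (127 ± 67.3) led and changed places between libraries. UGT2B11 (34.8 ± 8.89) came next, then UGT2B28 (5.09 ± 1.09) and UGT2B10 (4.50 ± 1.03), which also changed places, and UGT2B7 (0.305 ± 0.0447) was last. UGT2B28 was thus 0.650 to 1.57 times UGT2B15 in shScramble DHT+, and far below both UGT2B15 and UGT2B17 in the other groups.

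The 2 columns of each library, taken from their names and likeness as repeat sequencing runs, gave nearly the same levels for the abundant members. The median fold between runs was 1.02 for UGT2B17, 1.03 for UGT2B15 and 1.07 for UGT2B11, and it was 1.13 for UGT2B10, 1.15 for UGT2B28 and 1.74 for UGT2B7. The wide spread of UGT2B15 and UGT2B17 between the shTMEFF2 replicates is thus seen in both runs, while the values of UGT2B7 are limited by its counts.

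The promoters of 4 members, UGT2B7, UGT2B10, UGT2B11 and UGT2B15, were found in the RefSeq promoter table (GRCh38.p14), and those of UGT2B17 and UGT2B28 were not analysed here. Motifs were searched on both strands in the 250 bases before the start: TGTTTAC, bound by FOXA factors, and TATAAA, the letters of the TATA box. The promoters of a gene that was lower with DHT in shScramble (UGT2B15), of a gene that was higher (UGT2B11) and of a gene near 0 change (UGT2B10) are shown, with matches in capitals.
UGT2B15 (chr4:68670653-68670902, minus strand): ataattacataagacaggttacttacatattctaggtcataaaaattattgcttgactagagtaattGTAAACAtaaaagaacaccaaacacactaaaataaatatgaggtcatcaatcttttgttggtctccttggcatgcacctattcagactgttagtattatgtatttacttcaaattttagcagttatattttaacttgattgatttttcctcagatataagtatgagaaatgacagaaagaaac
UGT2B11 (chr4:69214749-69214998, minus strand): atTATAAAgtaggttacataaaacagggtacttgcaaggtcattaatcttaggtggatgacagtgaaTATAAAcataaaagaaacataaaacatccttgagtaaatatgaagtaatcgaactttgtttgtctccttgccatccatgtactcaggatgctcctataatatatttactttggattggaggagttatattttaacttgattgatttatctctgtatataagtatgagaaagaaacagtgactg
UGT2B10 (chr4:68815744-68815993, plus strand): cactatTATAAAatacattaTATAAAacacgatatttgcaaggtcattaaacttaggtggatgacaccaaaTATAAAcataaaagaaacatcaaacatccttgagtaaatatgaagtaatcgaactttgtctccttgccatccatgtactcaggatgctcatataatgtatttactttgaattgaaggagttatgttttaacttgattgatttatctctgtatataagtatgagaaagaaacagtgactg
UGT2B15 held a FOXA match, 183 to 177 bases before the start. UGT2B10 held 3 TATAAA matches, within 244 to 174 bases before the start, and UGT2B11 2, within 248 to 178 bases before it. UGT2B7 held neither motif. Of the 35116 promoters of the table, 2.98% held TGTTTAC and 10.7% TATAAA. The promoters of UGT2B10 and UGT2B11 were identical at 90.2% of aligned bases, and those of UGT2B15 and UGT2B11 at 70.0%. With DHT in shScramble UGT2B11 was 6.03-fold higher, and the ranges of UGT2B10 overlapped. The part of these 250 bases in the DHT responses was not tested. A match of letters is not a binding site, and nothing is drawn from the absence of one.

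Other UGT genes were scarce in these cells. Of the 26 other symbols of the UGT1A, UGT2A, UGT2B and UGT3A groups and UGT8, pseudogenes included, 9 were at 0 in all libraries once the estimated counts were rounded, and 5 passed the filter. UGT2B4, a relative in the same cluster, was at 1.21 ± 0.570 CPM in shScramble DHT- and 1.196 ± 0.463 CPM in shTMEFF2 DHT-, and passed in no comparison, and the same held for UGT2A1 (0.833 to 2.06 CPM) and UGT1A1 (0 to 1.37 CPM). UGT8, which makes galactolipids, rose in shTMEFF2 against shScramble with DHT, from 2.78 ± 0.748 to 4.76 ± 0.525 CPM (adjusted p = 0.0197, edgeR). The pseudogene UGT2B27P, named after its values were seen, was at 0 to 0.136 CPM in shScramble and 0.577 to 1.15 CPM in shTMEFF2. It had 0 to 3 counts a library in shScramble and 12 to 26 in shTMEFF2, so it passed the filter only through the line in which it was high, and no test is given. How far its reads are shared with the coding genes was not measured.

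The protein-coding neighbours within 500 kilobases of the cluster were followed too. Of 13 such genes 6 passed the filter, and 0 of the 6 were called by edgeR or DESeq2 between the lines at either DHT level, against 0.571% of all genes without and 6.77% with DHT in edgeR, and 0 had an unadjusted p under 0.05. Of 6 genes few calls would be seen at these shares, so nothing is read from the count. YTHDC1, which binds methylated RNA, was at 120 ± 5.41 CPM in shScramble DHT- and 125 ± 2.15 CPM in shTMEFF2 DHT-, and SULT1B1, a sulfotransferase, was at 23.5 ± 1.28 and 23.5 ± 4.30 CPM. TMPRSS11E, the coding neighbour nearest to UGT2B17, rose with DHT in shScramble from 1.67 ± 0.635 to 3.28 ± 1.29 CPM (adjusted p = 0.0378), whereas UGT2B17 was lower. In shTMEFF2 it was at 2.62 ± 0.425 CPM without and 4.74 ± 0.516 CPM with DHT, and was not called (adjusted p = 0.0835, edgeR). For DHT, edgeR called 1 of the 6 neighbours in shScramble and 0 in shTMEFF2, against 11.9% and 4.88% of all genes. DESeq2 called 1 in each line, and nothing is read from these counts either.

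The supply of UDP-glucuronic acid and the handling of conjugates were followed in a list of 15 genes, all of which passed the filter. UGDH, which makes UDP-glucuronic acid, was at 63.3 ± 2.19 CPM in shScramble DHT-, 72.9 ± 7.56 in shScramble DHT+, 71.1 ± 8.76 in shTMEFF2 DHT- and 70.9 ± 2.61 in shTMEFF2 DHT+, and passed in no comparison. UGP2, the step that makes UDP-glucose, was at 45.03 to 51.5 CPM in group means, and GUSB, which removes glucuronic acid again, at 59.0 to 70.6 CPM, and neither was called. For GUSB the lines differed with DHT by 0.26 ± 0.08 on the log2 scale (adjusted p = 0.0452), a fold under the limit of 1.5. ABCC4, an exporter of organic anions including conjugates, rose with DHT from 205 ± 18.4 to 861 ± 34.6 CPM in shScramble (log2 fold change 2.07 ± 0.13, adjusted p = 3.37e-07) and from 146 ± 15.7 to 258 ± 52.5 CPM in shTMEFF2 (0.82 ± 0.13, adjusted p = 0.00193). Its responses differed between the lines (-1.25 ± 0.18, adjusted p = 0.00184). ABCC1, another exporter, rose with DHT in shScramble (0.87 ± 0.08, adjusted p = 9.22e-06) and not in shTMEFF2 (-0.20 ± 0.08, adjusted p = 0.139), and this difference passed as well (adjusted p = 0.000358). In this list 3 genes rose with DHT in shScramble (ABCC4, ABCC1 and the hexokinase HK2) and 2 in shTMEFF2 (ABCC4 and HK2), and 3 were lower in shTMEFF2 with DHT (the same 3 as in shScramble).

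Of the 34 genes of androgen synthesis and breakdown 20 passed the filter, and AKR1C3, which makes testosterone, was below it with 1 to 8 counts a library. SRD5A1, which makes DHT, was at 54.4 to 60.7 CPM in group means and was not called. With DHT in shScramble HSD17B4, STS and HSD17B2 rose and HSD17B14 fell. HSD17B4, which oxidises steroids and also works in peroxisomal fatty acid breakdown, went from 319 ± 21.5 to 511 ± 25.6 CPM in shScramble (adjusted p = 4.69e-06), and from 292 ± 7.55 to 350 ± 2.17 CPM in shTMEFF2, where the fold was under the limit of 1.5. In shTMEFF2 HSD17B14 fell with DHT. Between the lines with DHT, HSD17B6 rose (0.98 ± 0.31, adjusted p = 0.0481) and HSD17B2 and HSD17B14 fell (-1.05 ± 0.21, adjusted p = 0.00519, and -0.80 ± 0.25, adjusted p = 0.0429). With 1 library left out, the 8 genes of the 3 lists called in this comparison became 4 to 7, so calls near the limit depend on single libraries. CYP11A1, which starts steroid synthesis from cholesterol, stayed at or under 2.50 CPM in all libraries. It was called by edgeR with DHT in both lines. However, it had 2 to 7 counts in each DHT- library and 7 to 50 in the DHT+ libraries. CYP11A1 thus passed the filter only through the treatment in which it was high, and nothing is read from its calls.

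Of 18 factors known to act on UGT2B genes that were examined, 14 passed the filter. FOXA1, a pioneer factor of prostate cells, was at 392 to 420 CPM in group means and passed in no comparison. POU2F1, an octamer-binding factor, fell with DHT in shScramble from 64.6 ± 10.6 to 42.2 ± 6.14 CPM (adjusted p = 0.00557). Between the lines with DHT, VDR, the vitamin D receptor, rose (0.63 ± 0.18, adjusted p = 0.0274) and PPARA, a fatty acid receptor, fell (-0.76 ± 0.18, adjusted p = 0.0116).

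Over the 3 lists together, 9 of 49 genes tested (18.4%) were called for DHT in shScramble, against 11.9% of all genes, and 4 (8.16%) for DHT in shTMEFF2, against 4.88%. Both counts include CYP11A1, which passed the filter only through DHT, so nothing is read from these shares. With 1 library left out, the 4 became 2 to 4. Between the lines 0 were called without DHT, against 0.571% of all genes (88 genes, and 180 with DESeq2), and 8 (16.3%) with DHT, against 6.77%. The 8 became 4 to 7 with 1 library left out. Without DHT, 12 of the 49 had an unadjusted p under 0.05 in edgeR, and 2 of them, HSD17B10 and RDH11, an adjusted p at most 0.05 with a fold under 1.5, and DESeq2 called 0. For the difference of DHT responses 5 (10.2%) were called, against 4.94%.

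**Figure D5:**
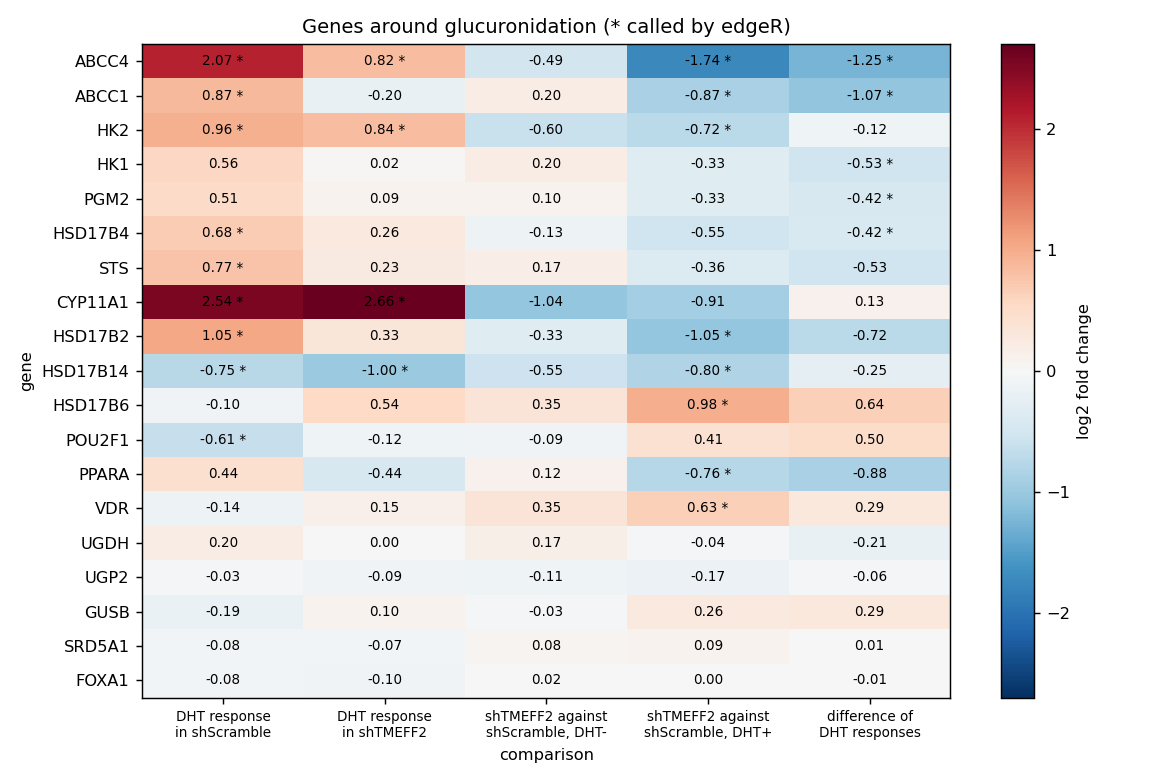
Log2 fold change (colour and printed number) of the genes of the 3 lists that were called at least once and of 5 genes followed throughout, in the 5 comparisons; a star marks a call by edgeR. The column of shTMEFF2 against shScramble without DHT holds no star, and ABCC4 is called in the other 4 columns.

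The genes most like the family sum over the 12 libraries are given as a description, by Pearson's r of log2 CPM. They were sought among 11151 genes outside the UGT family with a mean of at least 5 CPM over all libraries. The highest were B3GALNT2 (r = 0.97), GLUD2 (0.96), VASH2 (0.96), CYP39A1 (0.94), an enzyme of bile acid synthesis, and ACAA2 (0.94), an enzyme of mitochondrial fatty acid breakdown. The lowest were EPB41L4B (-0.98), ETV1 (-0.97), DCAF12 (-0.97), H1F0 (-0.96) and NFIB (-0.96), of which ETV1 and NFIB are transcription factors. After the group means were taken out, so that only the differences between replicates remained, r was 0.75 to 0.94 for the first 5 and -0.72 to -0.88 for the last 5. GLUD2 had group means of 2.95, 1.34, 8.36 and 7.96 CPM in shScramble DHT-, shScramble DHT+, shTMEFF2 DHT- and shTMEFF2 DHT+, and ETV1 had 292, 356, 227 and 249 CPM. GLUD2 thus reached the limit of 5 CPM only through the shTMEFF2 groups, in which it was high, and nothing is read from its r. The 12 points share their libraries and groups, so r does not count 12 separate observations.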

How the data were processed

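RNA-seq of 12 LNCaP libraries in 4 groups of 3 was used. As the submitters' processing notes and the study's methods give it, the authors checked reads with FastQC, trimmed them with Trimmomatic (at least 15 bases kept) and quantified 75-base read pairs with kallisto 0.42.3 against GRCh38 transcripts. The values the authors deposited are estimated counts, 1 row a gene, scaled by transcript length and library size, so they need not be whole. Of its 24 columns each library has 2, and 0 stayed unassigned. The pair was taken as repeat runs because both carry the library's name and were more alike than replicates; the sources used here do not say so. Runs were summed and rounded, and library totals were 19450866 to 22612046. The methods also name a filter at 5 CPM and a DESeq2 test.

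Counts were fitted with edgeR 4.0.16 in R 4.3.3 (TMM factors 0.955 to 1.037, filterByExpr with a minimum count of 10, which kept 15419 genes), with all libraries in 1 quasi-likelihood fit and 1 coefficient per group. A gene was called at a fold of at least 1.5 and a Benjamini-Hochberg adjusted p (over the genes tested) of at most 0.05, and the difference of DHT responses on the adjusted p alone. "Rose" and "fell" are used of called genes. SD is between the 3 libraries of a group. Log2 CPM used a prior count of 2. The family sum was added as 1 row beside the 6 members, and the fit was repeated with the same library sizes and TMM factors. Levels per kilobase used the main GENCODE transcript, since the RefSeq table used here gives only genomic spans. Coding sequences were aligned with Biopython 1.88 and, for the stretch shown, MAFFT 7.526. Sequences were read from GENCODE transcripts and the RefSeq promoter table, and each equalled the genome at its coordinates. Statistics were tested on simulated data.

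The members and lists were chosen with earlier results of these data known. Named were the members, TMEFF2, KLK3, every other UGT gene that passed the filter, UGDH, UGP2, GUSB, SRD5A1, AKR1C3, HSD17B4 and FOXA1, the 4 called genes of each list and comparison with the smallest adjusted p, genes that explain a count of at most 5, and the genes most like the family sum. Alternatives were DESeq2 1.42.0, library size in place of TMM, a mean above 5 CPM, no filter, a block for the replicate number, each run alone, a fit of only the 6 libraries compared, each library left out, and shares per kilobase. A few genes of these lists were left out of all counts and are not reported here. The other experiments of the study were not analysed here.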

Additional observations from a re-analysis of the deposited data

Results flagged for a closer look

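The DHT response of 5 genes of the 3 lists differed between shTMEFF2 and shScramble by edgeR's test of the difference itself. On the log2 scale, as shTMEFF2 minus shScramble, the difference was -1.07 for ABCC1 (adjusted p = 0.000358), -1.25 for ABCC4 (adjusted p = 0.00184), -0.53 for HK1 (adjusted p = 0.0132), -0.42 for HSD17B4 (adjusted p = 0.0134) and -0.42 for PGM2 (adjusted p = 0.0323). HK1 and PGM2, which work on the sugar phosphates that feed UDP-glucuronic acid, had a DHT response of 0.56 ± 0.08 (SE) and 0.51 ± 0.07 in shScramble, both under the fold limit, and of 0.02 ± 0.08 and 0.09 ± 0.07 in shTMEFF2. In all 5 the response was nearer to 0 in shTMEFF2. No test for an outlying library was run within groups of 3.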

How the results depend on the processing

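The log2 fold changes of the family sum moved in each of the 99 refits by less than the SD of log2 CPM between libraries of a group, pooled over the groups compared (0.29 for DHT in shScramble to 0.71 for DHT in shTMEFF2), which is wider than the SE of some fold changes. Leaving out 1 library at a time gave -0.98 to -0.70 for DHT in shScramble, -0.95 to -0.07 for DHT in shTMEFF2 (without replicate 1 of shTMEFF2 DHT+ and of shTMEFF2 DHT-), 1.88 to 2.53 and 2.16 to 2.95 between the lines without and with DHT, and -0.09 to 0.78 for the difference of responses, which was below 0 only without replicate 1 of shTMEFF2 DHT+. In 573 refits single members moved by less than their own such SD, and in 5 they did not. These were the DHT response of UGT2B10 in shScramble with run 2 only (0.0019, against -0.22 with an SD of 0.21), the difference of responses of UGT2B15 without replicate 1 of shTMEFF2 DHT+ (0.85), and UGT2B7 without replicate 1 of shScramble DHT+ (-1.25, 1.71 and 1.39 in the 3 comparisons that use it). The cause was not tested.

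The 88 genes called between the lines without DHT became 180 with DESeq2, 157 without a filter, 46 with the 6 libraries of the comparison alone, 46 with run 1 only, 50 with run 2 only and 144 with the replicate block. With 1 library left out they were 32 to 117, lowest without replicates 1 and 2 of shScramble DHT- (32 and 34) and of shTMEFF2 DHT- (47 and 34). The labels do not say that equal replicate numbers share a batch, and correlations of same-numbered libraries were -0.0017 to 0.169 over 12 pairs. The block moved 1 other count by over 1.5 times, given below. The 761 genes for the difference of responses became 1199 with DESeq2, 494 with run 2 only and 465 to 765 with 1 library left out (465, 489 and 491 without replicate 2 of shScramble DHT-, replicate 1 of shScramble DHT+ and replicate 2 of shTMEFF2 DHT-). The 753 for DHT in shTMEFF2 became 466 to 902, lowest without replicate 3 of shTMEFF2 DHT+, and DHT in shScramble gave 1593 to 1850 and the lines with DHT 797 to 1066.

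Pathway genes called for DHT in shTMEFF2, 4, became 2 at a mean above 5 CPM and with the 6 libraries alone, and 2 to 4 with 1 library left out (2 without replicate 2 of shTMEFF2 DHT- or replicate 3 of shTMEFF2 DHT+). Between the lines with DHT, 8 became 5 at a mean above 5 CPM, 3 with run 2 only and 4 to 7 with 1 library left out (4 without replicate 1 or 2 of shScramble DHT+, 5 without replicate 1 or 2 of shTMEFF2 DHT+). For the difference of responses 5 became 8 with the replicate block, 3 with run 1 only or run 2 only and 4 to 6 with 1 library left out, and for DHT in shScramble 9 became 7 to 9. Without DHT 0 pathway genes were called between the lines in each setting run. Of 24 shares of the family sum, 8 moved beyond their spread when taken from CPM in place of CPM per kilobase. Counts limit UGT2B7, with 3 to 15 a library, and shared words limit the split within each pair.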
